A study of Mus musculus with 7 samples.

Results

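Anti-Six4 peaks were examined at 2 genes of muscle energy supply on mouse chromosome 7, Ckm and Aldoa. Ckm encodes the muscle form of creatine kinase, which moves phosphate between creatine phosphate and ATP during contraction, and Aldoa encodes aldolase A, the glycolytic aldolase of muscle and of many other tissues. A peak was counted at a gene when its midpoint lay in a window set around that gene, from 19950000 to 20030000 for Ckm (80 kb) and from 133920000 to 133970000 for Aldoa (50 kb), in the mm9 build. By this rule 8 of the 58528 peaks in the list were found, 3 at Ckm and 5 at Aldoa. The windows were placed by position and not by any measured value. The genes and windows were, however, chosen with earlier results of these data known. Positions of genes in mm9 were not used here, so which peak lies in a promoter, an exon or an intron is not given.

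The peaks come from chromatin of C2C12 cells, a mouse myoblast line that forms myotubes when serum is lowered, and were made with an antibody to Six4 in the shNS line, the control that carries a short hairpin, after 24 h in differentiation medium. This is 1 of 7 libraries of the series. The others were anti-Six4 in the stable knockdown line (shSix4), anti-Flag in a line stably expressing Flag-Six4-myc from a retrovirus, anti-Flag and normal rabbit IgG in the parental line, and input DNA of the parental and shNS lines, and none of these 6 was analysed here. There was no replicate, the read depth is unknown, and no value below measures variation between cultures or shows how much of the signal depends on Six4. How the hairpin lines were derived, as clones or as pools, is not given in the sources used here.

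Six4 is one of the sine oculis homeobox factors. These homeodomain proteins bind a sequence named the MEF3 site in the regulatory regions of muscle genes. Such a site has been described in the muscle promoter of aldolase A, and Ckm is a classic target gene of the myogenic program, with an upstream enhancer bound by MyoD and MEF2 family proteins. Muscle creatine kinase rises when myoblasts differentiate and is often used as a measure of it.

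The promoter letters of both genes are shown because a MEF3 site has been described in the muscle promoter of aldolase A. No such site is named here for Ckm. The letters are the 250 bases just before each start site in RefSeq, build GRCm38.p6. That build differs from that of the peaks, so no peak was placed on the letters. They run 5′ to 3′ on the strand of the gene, and capitals mark E-boxes (CANNTG). This broad pattern includes the sites of MyoD family proteins, but a match need not be one. RefSeq gave 1 start for Ckm and 3 for Aldoa, and the table does not say which Aldoa start is used in muscle. The Ckm sequence lies on the plus strand at chr7:19410844-19411093, the first Aldoa start has its sequence on the minus strand at chr7:126800448-126800697, and the second on the minus strand at chr7:126799255-126799504.
Ckm: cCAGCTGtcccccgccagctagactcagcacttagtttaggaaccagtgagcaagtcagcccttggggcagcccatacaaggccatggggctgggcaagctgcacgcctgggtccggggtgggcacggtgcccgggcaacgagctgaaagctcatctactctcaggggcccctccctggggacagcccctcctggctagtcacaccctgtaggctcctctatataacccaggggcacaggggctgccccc
Aldoa start 1: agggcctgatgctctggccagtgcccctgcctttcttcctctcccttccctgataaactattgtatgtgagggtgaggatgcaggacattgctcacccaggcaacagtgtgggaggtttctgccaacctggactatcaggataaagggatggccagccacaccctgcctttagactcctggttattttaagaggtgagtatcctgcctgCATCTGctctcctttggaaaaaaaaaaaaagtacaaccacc
Aldoa start 2: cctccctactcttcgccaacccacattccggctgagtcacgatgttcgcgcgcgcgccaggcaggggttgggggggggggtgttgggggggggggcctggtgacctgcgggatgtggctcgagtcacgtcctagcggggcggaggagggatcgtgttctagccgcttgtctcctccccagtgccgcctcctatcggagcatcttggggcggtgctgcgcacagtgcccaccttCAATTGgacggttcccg

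The third Aldoa start lies close to the second and its 250 bases overlap those printed. The MEF3 letters TCAGGTTTC, searched on both strands, matched none of these 4 sequences, nor did the shorter TCAGGTT, which is part of the longer motif. Among the 32851 RefSeq promoter sequences of equal length, 0.387% held the longer form and 3.49% the shorter one. Each of the 4 sequences held 1 E-box, CAGCTG at Ckm, CATCTG at the first Aldoa start and CAATTG at the other Aldoa starts, where 66.2% of all promoters held at least 1. The MEF2 box and the CArG box, the sites of MEF2 and of serum response factor, were not matched in any of the 4 and occurred in 0.508% and 1.47% of promoters. The closest stretch to the 9 letters of MEF3 differed at 2 bases in the Ckm sequence and in those of the first and the third Aldoa starts, and 54.6% of all promoters came as close. In the second Aldoa sequence it differed at 3 bases. These searches cover only 250 bases before each annotated start and say nothing about the peaks or about sites elsewhere at these genes.

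At Ckm, the 3 peaks lay in the first part of the window and left the rest empty. The first peak ran from 19955255 to 19955746 (492 bp), and the second from 19967141 to 19967604 (464 bp). The third ran from 19990826 to 19991117 (292 bp), with its midpoint 0.97 kb past the centre of the window. The gap between the first and second was 11.4 kb, and between the second and the third it was 23.2 kb. The nearest neighbours of these peaks lay 7.78, 11.4 and 23.2 kb away, edge to edge. That of the third peak was farther away than that of 82.1% of the 2620 peaks on chromosome 7, where the median distance to the nearest neighbour was 8.77 kb. After the third peak no other was listed for 51.8 kb, until a peak from 20042931 to 20044466 (1536 bp) outside the window. Of the 2619 gaps on the chromosome, 16.9% were longer than this one and the median was 16.1 kb. On the other side the nearest peak outside was at 19946971 to 19947478, its midpoint 2.78 kb before the window's edge.

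At Aldoa, peaks were more numerous and had a larger median width, 597 bp against 464 bp at Ckm, though the widths overlapped. The first ran from 133920268 to 133920864 (597 bp), its midpoint 0.566 kb inside the window's edge, and the second from 133923570 to 133923861 (292 bp). The third, from 133935406 to 133936229, was 824 bp wide. The fourth was the widest of all 8 and ran from 133942344 to 133943697 (1354 bp), with its midpoint at -1.98 kb from the centre of the window. The fifth ran from 133952590 to 133952974 (385 bp). The gaps between them were 2.71, 11.5, 6.11 and 8.89 kb in this order, and after the fifth came 38.4 kb without a peak. The nearest peaks outside were at 133902891 to 133903785, with a midpoint 16.7 kb before the window, and at 133991330 to 133991817, 21.6 kb past it.

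**Figure D1:**
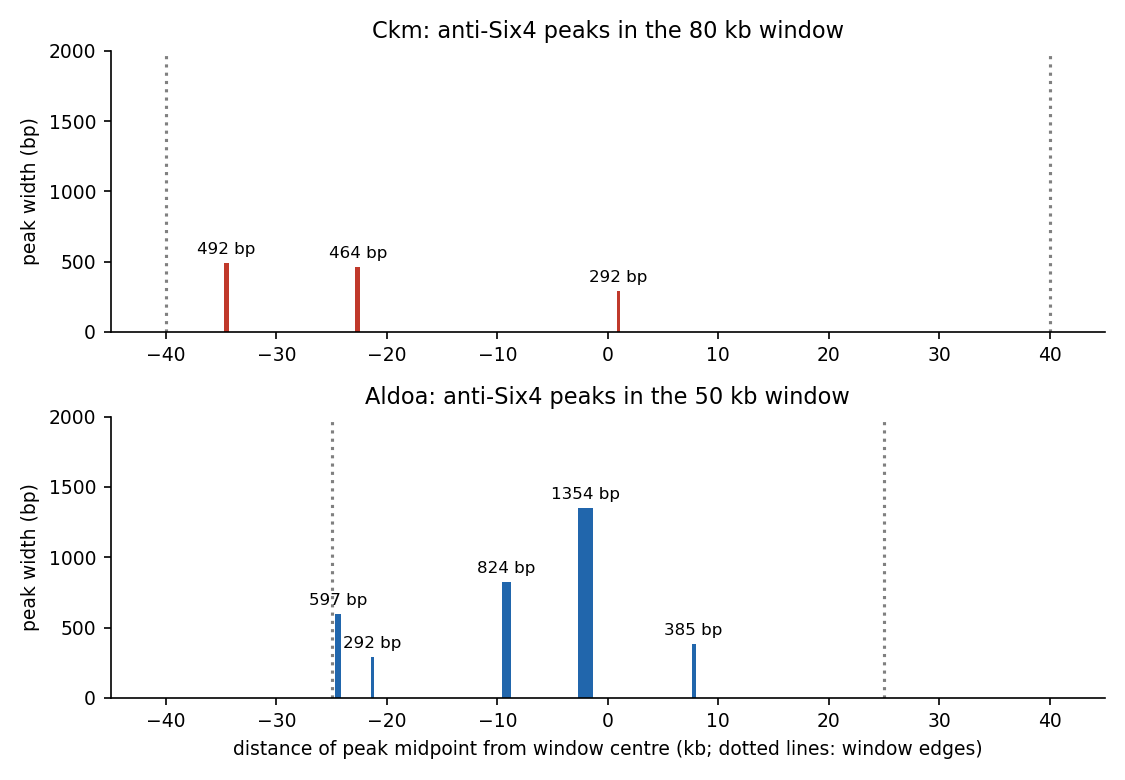
Anti-Six4 peaks in the Ckm window (80 kb, top) and the Aldoa window (50 kb, bottom), by distance of the peak midpoint from the window centre in kb (horizontal) and peak width in bp (vertical). Each bar is 1 peak, drawn as wide as the peak is; the 3 Ckm peaks are 292 to 492 bp wide and the widest Aldoa peak, of 1354 bp, lies next to the centre.

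Against windows of equal length on the same chromosome, the Aldoa count was high and the Ckm count was not. Chromosome 7 was laid out in windows from its first peak, which gave 1865 windows of 80 kb and 2984 of 50 kb. At least 3 peaks, the Ckm count, were found in 24.1% of the windows of 80 kb, and at least 5, the Aldoa count, in 3.18% of those of 50 kb. Fewer peaks than at Ckm were listed in 75.9% of windows, as many in 7.61% and more in 16.5%. For Aldoa these shares were 96.8%, 2.01% and 1.17%. Many windows were empty, 54.2% at 80 kb and 61.2% at 50 kb, and unmappable sequence and assembly gaps were not removed. Among windows with at least 1 peak, 47.4% had fewer than Ckm and 91.8% had fewer than Aldoa. The Ckm figure therefore fell to the middle of occupied windows while the Aldoa figure stayed high. These are positions within 1 list, given without a test.

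**Figure D2:**
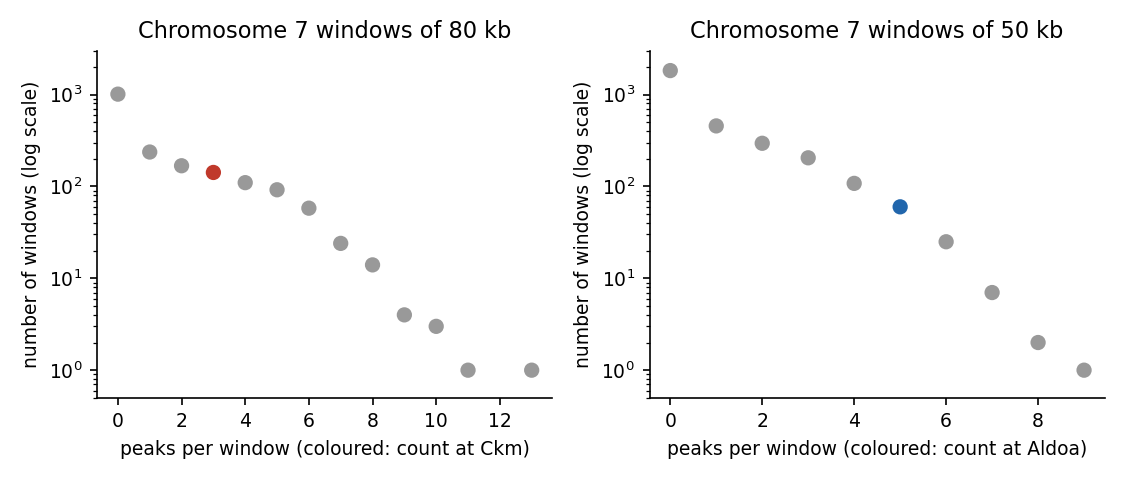
Number of chromosome 7 windows (vertical, log scale) with each number of peaks (horizontal), for windows of 80 kb (left) and 50 kb (right), 1 point per count. The coloured point is the count at Ckm (3 peaks, shared by 142 windows) or at Aldoa (5 peaks, shared by 60 windows).

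The Aldoa peaks covered 2.77 times as many bp as the Ckm peaks, a larger difference than in the number of peaks. In shares of chromosome 7 windows, both measures placed Aldoa above Ckm, and fewer peaks were listed in 96.8% and 75.9% of windows, respectively. The 3 Ckm peaks covered 1248 bp, or 1.56% of their window, and the 5 Aldoa peaks covered 3452 bp, or 6.90%. Less was covered in 80.6% of the 80 kb windows than at Ckm and in 99.4% of the 50 kb windows than at Aldoa. The fourth Aldoa peak alone made up 39.2% of the covered length there. Compared only with windows that held the same number of peaks, Ckm was ordinary, since 78 of 142 such windows covered less, and their median was 1172.5 bp. Of the 60 windows with 5 peaks, 55 covered less than Aldoa, and their median was 2092.5 bp.

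Single peaks at both genes were mostly wider than the chromosome's median of 304.5 bp, 6 of 8 in all, 2 of 3 at Ckm and 4 of 5 at Aldoa. Those below it were the third Ckm peak and the second Aldoa peak, both 292 bp. Peaks of such widths were usual around both genes: in the 1 Mb around each window's centre, these peaks included, the median width was 422 bp at Ckm and 423 bp at Aldoa, which 2 of 3 and 3 of 5 peaks exceeded. The first and second Ckm peaks were wider than 72.4% and 70.5% of the chromosome's peaks. At Aldoa the shares were 79.6% for the first peak, 88.7% for the third, 97.9% for the fourth and 62.7% for the fifth. The fourth Aldoa peak ranked 54 of 2620 by width. It was the only 1 of the 8 that reached 1 kb, a width that 6.18% of chromosome 7 peaks reached. The widest peak at Ckm was wider than the widest peak in 48.9% of the 854 occupied windows of 80 kb, and the widest at Aldoa surpassed that of 95.3% of the 1159 occupied windows of 50 kb. Among the 60 windows with 5 peaks the Aldoa one surpassed 49, and their widest peaks had a median of 712.5 bp.

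The surroundings of Ckm held more peaks than its own window. In the 12 windows of 80 kb to its sides, 6 on each, the counts ran from 3 to 12 with a median of 6. None had fewer peaks than Ckm, 2 had as many and 10 had more. The window just before it held 12 peaks and the one just after it held 3. When the window was lengthened to 160 kb the Ckm count rose from 3 to 11, and 95.5% of windows of that length on the chromosome had fewer, so the place of Ckm among windows depended on where its edges were drawn. In a window of 40 kb around the same centre 1 peak remained, the one nearest the centre.

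Aldoa stood out from its neighbours, but not by much. Of its 12 flanking windows of 50 kb, 10 had fewer peaks, 1 had as many and 1 had more, with counts from 2 to 6 and a median of 3. The next window but one after it held 5 peaks, yet they covered 1978 bp against 3452 bp at Aldoa. A window of 100 kb held 7 peaks, with fewer in 94.0% of such windows, and a window of 25 kb held 3, with fewer in 96.1%. Unlike at Ckm, the Aldoa count thus kept a high place at each length tried. Both genes lay in regions rich in peaks: the 1 Mb around the Ckm window's centre held 70 peaks and that around Aldoa's 60. Windows of 1 Mb were not counted over the rest of the chromosome. The flanking windows had medians of 6 and 3 peaks, against chromosome means of 1.40 per 80 kb and 0.877 per 50 kb.

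**Figure D3:**
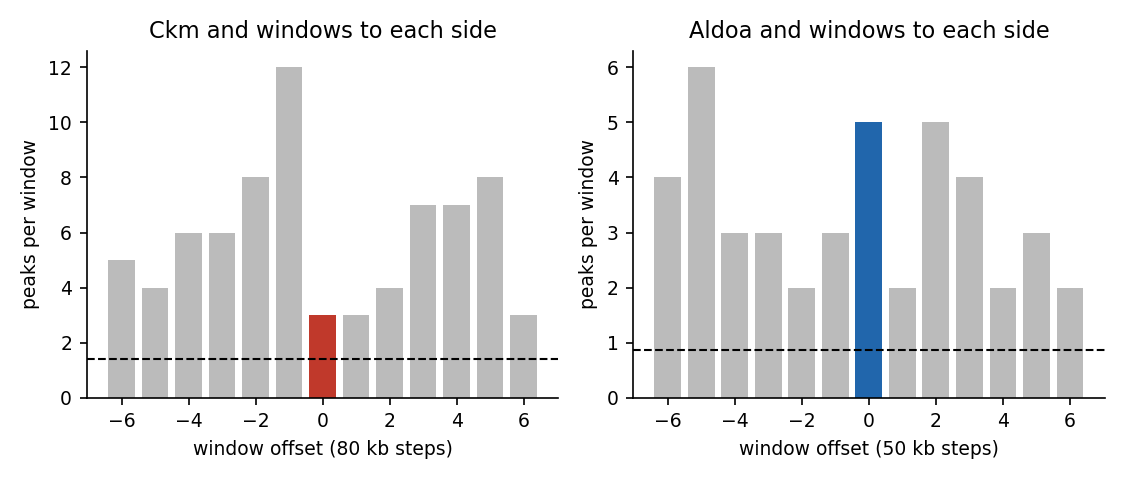
Peaks per window (vertical) at Ckm (left, windows of 80 kb) and Aldoa (right, windows of 50 kb) and in the 6 windows to each side, by offset in window lengths (horizontal). The coloured bar is the gene's own window, and the dashed line is the mean over all chromosome 7 windows of that length, 1.40 and 0.877 peaks; every bar lies above it.

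The list has no score, and its order was read with care. Of all pairs of successive lines, 96.6% were in ascending order of chromosome, sorted as text, and start. The list thus consisted of 2016 runs in genome order, 1 after the other, and 85 runs of at least 100 lines held 72.2% of the peaks. Short runs need not hold every chromosome, and that of the second Ckm peak held 18 of 20. In long runs the line number gives only the place on the genome, so that chromosome 7 comes near their end. In any run Ckm comes before Aldoa. Lines were therefore compared by run. The quantity that orders the runs is not given in the sources used here.

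The 8 peaks fell into 7 runs, spread from the first 10% of the list to past its middle. The second Ckm peak, on line 5470, was in the earliest of these runs (lines 5389 to 5485). The second Aldoa peak, on line 5699, was in a slightly later one (5521 to 5730). They were followed by the fourth Aldoa peak on line 11082 (run of 10677 to 11165), the fifth on line 17418 (16618 to 17535) and the third on line 18748 (18588 to 18764). The third Ckm peak was on line 25433 (24006 to 25732). The first Ckm peak and the first Aldoa peak, on lines 33236 and 33344, shared a run of 2505 lines, from 31194 to 33698, so the list does not order one before the other. In all, 6 of 8 peaks were in the first 50% of lines, where 50.6% of chromosome 7 peaks were, and 2 of 8 in the first 10%, where 9.05% were. The surroundings were listed early too, with a median line at 38.1% of the list in the 1 Mb around Ckm and 33.8% in that around Aldoa, against 49.9% on the whole chromosome. The earliest run was no rarity among windows: 19.9% of the occupied 80 kb windows had a peak in an earlier run than the earliest at Ckm, and 16.3% of the occupied 50 kb windows than the earliest at Aldoa. A window with more peaks is more likely to hold an early one. Among windows with the same number of peaks, 35 of 142 had an earlier run than Ckm and 20 of 60 than Aldoa.

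Width and place in the list parted at both genes. The earliest peak of each gene was not its widest. The second Aldoa peak was 292 bp wide in a run whose median width was 686.5 bp, where only 10.0% of peaks were narrower. Of the 146 peaks in the whole list with exactly this width, 5 were in earlier runs and 140 in later ones. The third Ckm peak has the same width, and 58 of the 146 were in earlier runs than it and 79 in later ones. The second Ckm peak, of 464 bp, was likewise early for its width, with 4 of the 38 peaks of that width in earlier runs and 33 in later ones. The opposite held for the first peak of each window. At 492 and 597 bp they were wider than 94.1% and 97.3% of the peaks in their shared run, which had a median of 237 bp. The fourth Aldoa peak was wider than 96.3% of its run, and wide peaks of chromosome 7 (at least 1 kb, 162 in number) were mostly listed earlier, with a median at 12.2% of the list against 18.9% for this peak.

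**Figure D4:**
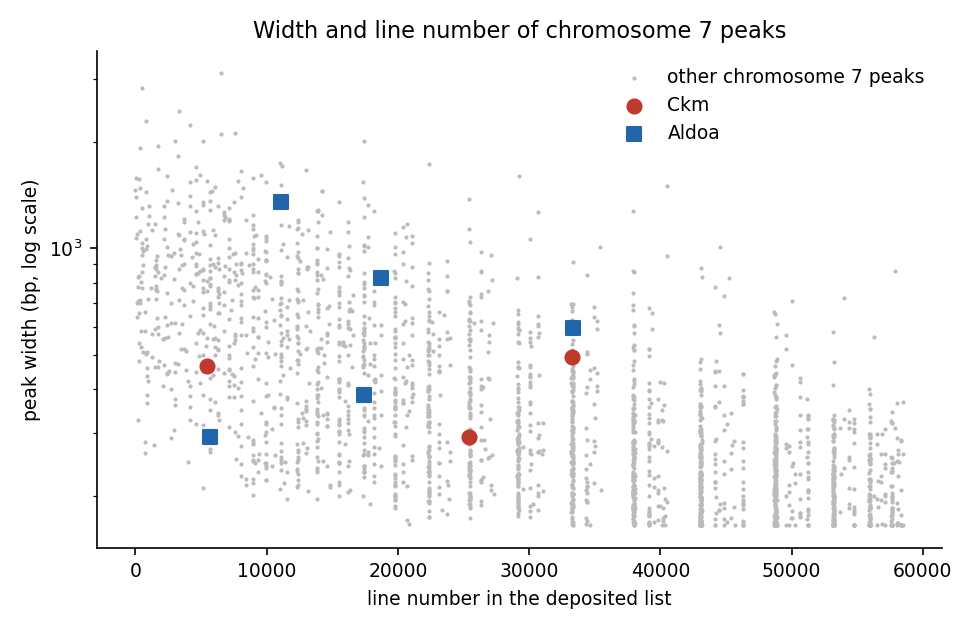
Width in bp (vertical, log scale) against line number in the deposited list (horizontal) for the 2620 peaks of chromosome 7. Red circles are the 3 Ckm peaks and blue squares the 5 Aldoa peaks; grey points gather in vertical stripes where long runs of lines reach chromosome 7, and the first peaks of both genes lie in 1 stripe, on lines 33236 and 33344.

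The first and second Aldoa peaks were the closest neighbours among the 8, with midpoints 3.15 kb apart, one in the first 10% of lines and the other in the last 50%. Of the 191 pairs of peaks 2 to 5 kb apart on chromosome 7, 4 joined such lines, this pair included, and over the whole list 91 of 5225 did. At 5 to 8 kb these counts were 23 of 321 and 596 of 9472. This kind of pair was known from the list as a whole before it was counted here, so its counts are given as a description. The other peaks at both genes were at least 6.11 kb from any neighbour, edge to edge.

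By the order of genes in the GRCm38.p6 table, used for names only, Ckm lies between Klc3 and Mark4, with Ercc2 and Exoc3l2 beyond them, and Aldoa between Ppp4c and Tlcd3b, with Tbx6 beyond Ppp4c. Klc3 encodes a kinesin light chain, Mark4 a kinase of microtubule-associated proteins, Ercc2 a helicase of DNA repair and transcription, Ppp4c the catalytic subunit of a protein phosphatase and Tbx6 a T-box transcription factor of the embryonic mesoderm. A peak counted at Ckm or Aldoa may therefore lie closer to one of these genes, which was not resolved here.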

How the data were processed

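The data are a list of ChIP-seq peaks (chromosome, start and end) that the authors deposited for 1 library, without header, score or summit. Bowtie, Picard, bedtools, MACS2 version 2.0 and the mm9 build are named in the submitters' processing notes; what each did, with which settings, control library and threshold, is not given in the sources used here. The file counts starts from 0, and they are printed from 1.

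Peaks were assigned by midpoint. Chromosome 7 was divided into windows of equal length from its first peak, whole windows up to the last peak only. All comparisons are descriptions of 1 library, with no test. The window code was tested on simulated data. Promoter letters and gene order came from RefSeq tables of GRCm38.p6, and no coordinate was moved between builds. Counts at other muscle energy genes and motifs within peaks were planned but not run, since neither gene positions nor sequence of mm9 were used here. The genes, windows and lists were chosen with earlier results of these data known, and the comparison by runs of lines was added after the list had been seen. The named items are all 8 peaks and the nearest peak beyond each window edge, and other genes are named only as neighbours; other genomic peaks or windows were not picked. Computation used Python 3.11.15 and its packages pandas 2.3.3 and numpy 2.4.6, binomial intervals used scipy 1.17.1, and plots were drawn with matplotlib 3.10.9.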

Additional observations from a re-analysis of the deposited data

How the results depend on the processing

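The number of peaks, their median width and line rank, and the share of chromosome 7 windows with fewer peaks were recomputed in 32 ways. Of these, 18 stayed within set limits (1.5 times for counts, 1 SD over the peaks for widths and ranks, the exact binomial 95% interval for shares of windows) and 14 moved beyond them. The binomial interval treats windows as independent, although neighbouring windows can share a region rich in peaks. It may therefore be too narrow and is a working limit only. Membership by any overlap and merging of peaks under 500 bp apart left 3 peaks at Ckm and 5 at Aldoa. Windows of 160 and 40 kb gave 11 and 1 peaks at Ckm, and a window of 25 kb gave 3 at Aldoa. The share of windows with fewer peaks than Ckm, 75.9%, became 47.4% among occupied windows, 69.6% on all autosomes, 81.7% in the first 50% of lines, 95.5% at 160 kb and 64.8% at 40 kb. For Aldoa, 96.8% became 91.8% among occupied windows, 94.6% on all autosomes, 97.7% after merging, 98.0% in the first 50% of lines, 94.0% at 100 kb and 96.1% at 25 kb. Ranking by run or by width kept the median ranks within limits that are wide for so few peaks: by width the Aldoa median was 17.4% against 29.8% by line, and the Ckm median 24.4% against 43.5%. The share at other window lengths and the ranking by run were added after the data had been seen. The read depth is unknown, so weaker sites at these genes may have gone uncalled. No paired analysis was possible because the series has 1 library of each kind.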
